A study of Pomacea canaliculata with 34 samples.

Results

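In embryos of the apple snail Pomacea canaliculata, 178 of 21131 counted genes had a transient profile with its top at Stage 5 or Stage 6. They were chosen from the levels themselves. Read counts were turned into CPM, the count divided by the library's total in genes and scaled to a fixed sum, and averaged per stage. A gene was a member if the highest of its 10 stage means was at Stage 5 or Stage 6, was 5 CPM or more, and was at least 2 times both the Stage 2 mean and the hatchling mean. The highest mean was at Stage 5 for 78 members and at Stage 6 for 100. The height of the peak and its ratios to Stage 2 and to the hatchling are therefore a description of how members were picked and are given with no test.

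The samples were whole animals, embryos at Stage 2 to Stage 10 that had been removed from the egg and hatchlings. The labels name no treatment, genotype, strain, sex or age in days, and do not describe what a stage looks like. Stage 2 to Stage 7 had 3 libraries of polyadenylated RNA each, and Stage 8 to Stage 10 and the hatchling had 4 each, 34 in all. The labels do not say whether the libraries of a stage came from separate clutches, so the p-values rest on a spread between libraries that could be technical alone. The libraries held 13392123 to 95942469 reads in genes, and the deepest libraries were at Stage 10 and in the hatchling. Because whole animals were used, a larger share of cells that express a gene and more RNA of that gene per cell cannot be told apart.

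As background, the apple snail lays its eggs above the water, and each embryo feeds on the fluid inside its egg until it hatches as a crawling juvenile. Gastropod embryos begin with transcripts stored by the mother, which are cleared as the embryo's own genes come on. In snails that hatch as juveniles, trochophore-like and veliger-like forms are passed inside the egg, and larval structures such as the velum are lost before hatching. All 178 members matched a protein-coding entry of the RefSeq gene table, where the symbol is the LOC number and no product is named, so no function is given to any of them. Protein and promoter sequences were not used here.

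The members together took a rising and then a falling share of the reads. They held 0.370%, 0.437% and 0.477% of the reads in genes in the 3 Stage 2 libraries. The share was 1.65%, 1.64% and 1.70% in the Stage 5 libraries and 1.76%, 1.80% and 1.72% in those of Stage 6. It lay between 1.30% and 1.41% at Stage 7 and between 0.445% and 0.493% in the 4 hatchling libraries. Every Stage 5 and Stage 6 library was above every library of the other stages, which the choice of members favours.

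**Figure D1:**
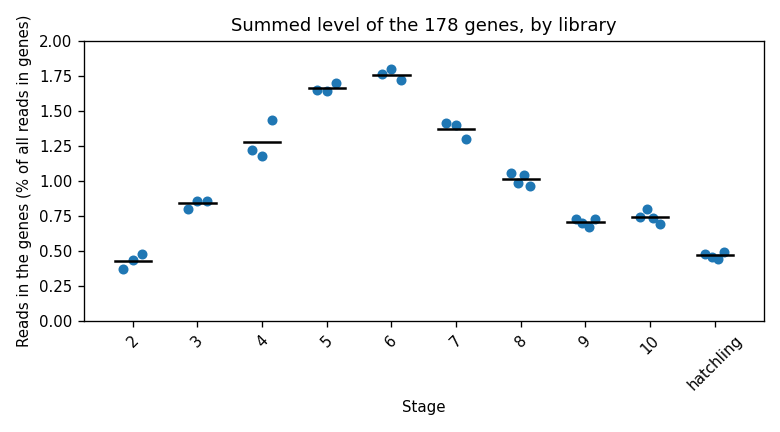
Share of all reads in genes that fell in the 178 members (y axis, percent) by stage (x axis); each point is 1 library and each bar the stage mean. Libraries of 1 stage lie close together, from 0.370% at Stage 2 to 1.80% at Stage 6 and back to 0.445% in the hatchling.

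The peak was broad for most members. The Stage 6 mean was 1.02 times the Stage 5 mean in the median member, with quartiles of 0.940 and 1.11, and it was within 1.5-fold in 156 of 178 members. The libraries of the 2 stages overlapped in 135 members. They did not overlap in 28 that were higher at Stage 6 and in 15 that were higher at Stage 5, against 16.6% and 7.21% of the 17441 tested genes (23.8% in either direction). The members' share without overlap was thus near that of all tested genes.

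The approach to the peak began at different times. The median member stood at 19.1% of its peak mean at Stage 2, at 45.9% at Stage 3 and at 76.1% at Stage 4. The unbroken stretch at or over 50% of the peak began at Stage 3 in 82 members, at Stage 4 in 54 and at Stage 5 in 41. Stage 3 was the earliest start possible, since the rule holds Stage 2 at or under 50%. In 1 member, LOC112561628, the stretch began at Stage 6.

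The decline was as uneven. The median member stood at 77.0% of its peak mean at Stage 7, at 55.7% at Stage 8, at 42.7% at Stage 9, at 43.5% at Stage 10 and at 31.8% in the hatchling. The stretch at or over 50% ended at Stage 7 in 52 members and at Stage 8 in 48. In 42 members it lasted to Stage 10, up to the hatchling, which the rule holds at or under 50%. The most frequent combinations were from Stage 3 to Stage 8 and from Stage 3 to Stage 10, with 25 members each. The stretch held a single stage in LOC112568042 and LOC112568154, whose Stage 5 libraries differed widely (below), and LOC112568154 was again at 75.6% of its peak mean at Stage 10, where 1 library had 15.9 CPM and the others 0 to 0.430 CPM.

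**Figure D2:**
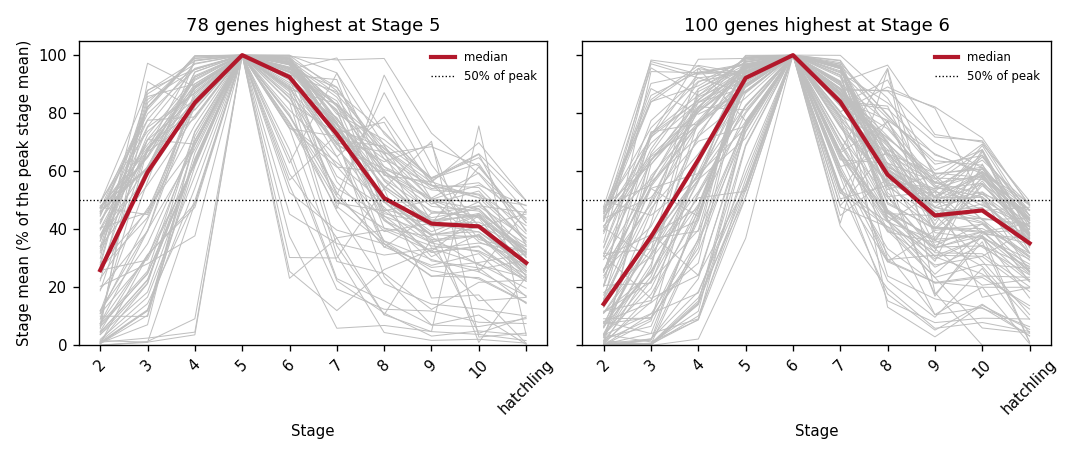
Stage means as a percentage of the peak stage mean (y axis) over the 10 stages (x axis) for the 78 members highest at Stage 5 (left) and the 100 highest at Stage 6 (right); each grey line is 1 gene, the red line their median and the dotted line 50%. Medians descend to about the 50% line by Stage 8 and stay flat from Stage 9 to Stage 10.

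Most members were modest in contrast. The peak mean was 2.68 times the higher of the Stage 2 and hatchling means in the median member, with quartiles of 2.26 and 3.84. The ratio was 3 or more in 72 members, 10 or more in 18 and 20 or more in 10. Near the limits, LOC112577293 (2.001 times its Stage 2 mean) was inside and LOC112566579 (1.98 times) outside, LOC112561644 (2.005 times its hatchling mean) inside and LOC112567745 (1.999 times) outside, and LOC112562877 (5.37 CPM at its peak) inside and LOC112570092 (4.73 CPM) outside. Membership near these limits depends on the scaling. With totals scaled by TMM, a factor that corrects for a few abundant genes, the rule chose 150 genes, of which 120 were among the 178. With RLE scaling, the size factors of DESeq2, it chose 119, of which 114 were shared. Of the 18 members with a ratio of 10 or more, 17 were kept under each, and of the 106 with a ratio under 3, 52 were kept with TMM and 46 with RLE.

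The ends of the series were not alike in many members. The hatchling mean was above the Stage 2 mean in 116 members and below it in 62. In 83 members no hatchling library reached down to the Stage 2 libraries, against 58.8% of tested genes, and in 28 the reverse held, against 24.6%. Both counts are smaller shares of the members than the shares of tested genes, so libraries of the ends were separated less often in members. The rule holds both ends below the peak, which a tested gene need not meet, so these shares are not a like comparison. The lowest of the 10 stage means was at Stage 2 in 106 members and in the hatchling in 52. In 4 members (LOC112554583, LOC112561628, LOC112567991 and LOC112564805, named because they are few) none of the 55988658 reads at Stage 2 was theirs, and 0 reads leave room for a level of up to 0.0536 CPM (3 reads of that sum, counting error only). No member was without reads in the hatchling.

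Changes were tested between neighbouring stages that enter no ratio of the rule. The 4 steps were from Stage 3 to Stage 4, from Stage 7 to Stage 8, from Stage 8 to Stage 9 and from Stage 9 to Stage 10. The test was edgeR's quasi-likelihood test on the counts of all 17441 genes that passed the filter on low counts, and all 178 members passed it. A call is a Benjamini-Hochberg adjusted p under 0.05 over these genes. The rule holds the 6 stages involved at or under the peak, and a member has to climb from Stage 2 and come down by hatching, so an excess of rises early and of falls late is partly built in.

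From Stage 3 to Stage 4, 87 of 178 members (48.9%) rose and none fell, against 12.6% of all tested genes that rose and 8.8% that fell (21.4% in all). The median log2 fold change was 0.52 in the members and 0.02 in all tested genes, and 53 members (29.8%) rose by 2-fold or more, against 5.76% of tested genes. No fall was called by limma-voom or DESeq2 either, which called 81 and 88 rises. At an unadjusted p under 0.05 edgeR gave 114 rises and 0 falls, and 15 members had a fold change below 0. The largest fitted rise among the 178 was in LOC112565150. It stood at 0.693, 0.226 and 0.234 CPM in the Stage 3 libraries and at 66.0, 104 and 159 CPM in those of Stage 4, with no overlap (8.05 ± 0.45 SE in log2, adjusted p = 1.20e-13 by edgeR). LOC112577381 rose from 0.231, 0.135 and 0.234 CPM to 12.4, 16.6 and 20.4 CPM (6.25 ± 0.65 SE in log2, adjusted p = 2.87e-08 by edgeR). Both calls held under every alternative tried.

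From Stage 7 to Stage 8, 109 members (61.2%) fell, against 23.2% of tested genes (46.1% in either direction), and 21 of them (11.8% of members) by 2-fold or more, against 2.39%. The median log2 fold change was -0.52 in the members and 0.03 in all tested genes. With RLE scaling the median of all genes moved to 0.14 and that of the members to -0.41, with 93 falls. LOC112567253 fell from 50.1, 57.4 and 54.6 CPM at Stage 7 to 18.7, 14.0, 17.9 and 15.6 CPM at Stage 8 (-1.76 ± 0.18 SE in log2, adjusted p = 5.01e-09 by edgeR). LOC112561435 fell from 24.9, 20.9 and 14.4 CPM to 8.25, 4.11, 6.75 and 5.62 CPM (-1.73 ± 0.30 SE in log2, adjusted p = 2.52e-05 by edgeR). In both, every Stage 8 library was below every Stage 7 library.

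The exceptions at Stage 8 were LOC112573328 and LOC112569750, which rose, against 22.9% of tested genes that rose. LOC112573328 stood at 28.7, 29.0 and 29.3 CPM in the Stage 5 libraries and at 14.9, 12.7 and 17.4 CPM in those of Stage 7. At Stage 8 it was back at 26.7, 24.6, 22.3 and 27.4 CPM (0.70 ± 0.19 SE in log2, adjusted p = 0.00416 by edgeR). It thus had a second high stage, which the rule allows. LOC112569750 stood at 5.18, 6.57 and 4.33 CPM in the Stage 7 libraries and at 7.83, 10.9, 12.5 and 11.2 CPM in those of Stage 8 (adjusted p = 0.0241 by edgeR). Its call was lost without replicate 3 of Stage 8, without replicate 1 or 3 of Stage 7 and with limma-voom, with a highest adjusted p of 0.0994 (edgeR or limma).

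From Stage 8 to Stage 9, 73 members (41.0%) fell and none rose, against 10.2% and 12.4% of tested genes (22.6% in all). The median log2 fold change was -0.36 in the members and 0.002 in all tested genes, 14 members (7.87%) fell by 2-fold or more, against 0.401%, and limma-voom and DESeq2 called no rise either (77 and 72 falls). At an unadjusted p under 0.05 edgeR gave 108 falls and 0 rises. Of the 178 members, 52 (29.2%) fell both from Stage 7 to Stage 8 and from Stage 8 to Stage 9, against 6.9% of tested genes, and 130 (73%) at one or both of these steps, against 26.5%. LOC112577381 fell from 68.9, 32.1, 69.4 and 23.6 CPM at Stage 8 to 11.7, 7.67, 10.8 and 17.0 CPM at Stage 9 (-1.99 ± 0.32 SE in log2, adjusted p = 5.43e-05 by edgeR). LOC112560458 fell from 23.9, 15.5, 29.8 and 24.1 CPM to 4.38, 11.6, 6.56 and 5.30 CPM (-1.76 ± 0.38 SE in log2, adjusted p = 0.00145 by edgeR). The libraries of the 2 stages did not overlap in either gene.

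From Stage 9 to Stage 10 few members changed. Of them, 7 rose and 8 fell, against 2.64% and 2.51% of tested genes, so that 8.43% were called against 5.15%, and the median log2 fold change was -0.01 in the members and -0.004 in all tested genes. With library totals in place of TMM, 10 rose and 6 fell. Of the 3 falls of 2-fold or more, the largest were in LOC112565614 and LOC112574724 (-8.33 and -4.68 in log2). Their calls were lost in 3 and 7 of 15 alternatives. In all 3 genes the libraries of 1 stage or more differed by 10-fold or more. The count of 15 calls was 7, 6 and 6 without replicates 1, 3 and 4 of Stage 10 and 9, 4 and 7 without replicates 2, 3 and 4 of Stage 9, and 30 with limma-voom and 24 with DESeq2. The largest rise among members with 10 CPM or more at Stage 10 and no overlap was in LOC112554013. It stood at 5.93, 6.01, 6.18 and 6.30 CPM in the Stage 9 libraries and at 11.9, 13.9, 14.9 and 12.1 CPM in those of Stage 10, with no overlap (1.05 ± 0.12 SE in log2, adjusted p = 6.80e-06 by edgeR), and the call held under every alternative. In the hatchling it stood at 6.37, 7.00, 6.95 and 6.58 CPM. LOC112563551, not a member under TMM or RLE scaling, rose by 0.57 on the log2 scale (SE 0.13, adjusted p = 0.0110 by edgeR, 0.0514 without replicate 3 of Stage 9). LOC112573328 was lower at Stage 10, with a change of -0.70 in log2 (SE 0.18, adjusted p = 0.0180 by edgeR, at most 0.0667 without replicate 4 of Stage 10 or replicate 2 or 3 of Stage 9).

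Members called lower at Stage 9 and then higher at Stage 10 were LOC112554013, LOC112560458, LOC112560459 and LOC112561273, named because they are only 4, or 2.25% of members against 0.384% of tested genes. LOC112560459 stood at 6.68, 18.8, 15.6 and 5.13 CPM in the Stage 9 libraries and at 55.8, 12.9, 33.9 and 24.1 CPM in those of Stage 10, and the libraries of the 2 stages overlapped. The Stage 10 rises of LOC112560458, LOC112560459 and LOC112561273 were each lost without 1 library or another and in the fit on 2 stages, with highest adjusted p of 0.0899, 0.157 and 0.102 (edgeR or limma) over the alternatives. The Stage 9 falls of LOC112560459 and LOC112561273 were lost in 5 and 6 of 15 alternatives, the fit on 2 stages and fits without 1 library of Stage 8 or Stage 9, with an adjusted p of up to 0.100 and 0.114 by edgeR. Both steps of LOC112554013 held under every alternative. LOC112561273 is not a member under TMM or RLE scaling.

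**Figure D3:**
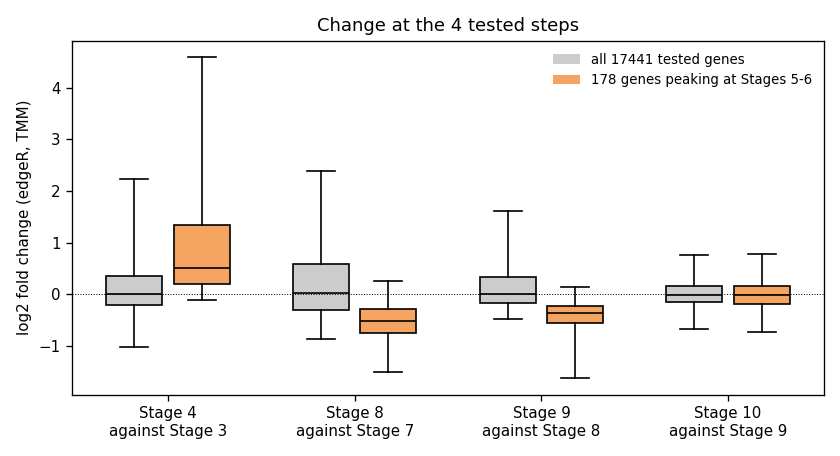
Log2 fold change (y axis) at the 4 tested steps for all 17441 tested genes (grey) and the 178 members (orange); boxes span the quartiles, the line is the median and whiskers reach the 5th and 95th percentiles. Members lie above all genes from Stage 3 to Stage 4 (median 0.52) and below them at the next 2 steps shown (-0.52 and -0.36), and the boxes coincide from Stage 9 to Stage 10 (-0.01).

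Neighbouring genes were among the members. In the gene order of the RefSeq table, restricted to counted genes, 20 of 178 members had another member as the next gene, in 8 groups. Members were 0.842% of all counted genes, but the 20 may have the other member on either side, so that share is not a like comparison. Whether 20 is more than a random order would give was not tested. The largest held 5 genes in a row, LOC112557629, LOC112557628, LOC112555648, LOC112557632 and LOC112557627. The genes next to this row on both sides were not members. LOC112557630, on one side, stood at 0.121 CPM in the Stage 6 libraries and at 203 CPM after hatching. LOC112557637 and LOC112555657, on the other, had their highest means at Stage 4, at 75.2 and 152 CPM, and so fell outside the rule. Their means also dropped from Stage 8 to Stage 9, from 19.3 to 6.58 CPM and from 44.0 to 10.5 CPM. In the hatchling they were 1.02 and 1.14 CPM, so the late fall was not particular to the row of 5. No test of these changes is given here. Whether reads were shared between near-identical copies cannot be seen from counts, so the levels of neighbours may not be independent.

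Each of the 5 neighbours had a peak mean over 15 times both ends. LOC112557629 stood at 7.37, 8.54 and 16.3 CPM in the Stage 2 libraries, at 1013, 988 and 1002 CPM in the Stage 6 ones, and at 6.15, 6.76, 0.978 and 8.80 CPM after hatching, a ratio of 93.3 to the higher end. LOC112557627 stood at 48.6, 34.4 and 45.9 CPM in the Stage 2 libraries, at 1316, 751 and 959 CPM in the Stage 5 ones, and at 6.58, 13.1, 3.88 and 4.22 CPM after hatching. In both genes the peak stage libraries were all far above those of the ends. LOC112557628 had a Stage 6 mean of 548 ± 37.2 CPM (SD, n = 3) against 20.4 ± 10.3 CPM at Stage 2, and LOC112557632 one of 38.3 ± 1.95 CPM against 2.31 ± 1.85 CPM. LOC112555648 was highest at Stage 5, with 419 ± 72.9 CPM, and had 1.63 ± 0.872 CPM in the hatchling (n = 4).

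The step from Stage 8 to Stage 9 was shared by all 5. The log2 fold change ran from -1.53 in LOC112557629 (SE 0.35, adjusted p = 0.00249 by edgeR) to -1.74 in LOC112557632 (SE 0.47, adjusted p = 0.00832 by edgeR), and the 5 calls held under every alternative. LOC112557629 stood at 344, 234, 435 and 246 CPM in the Stage 8 libraries and at 95.9, 115, 98.9 and 116 CPM in those of Stage 9. In the other four, too, no Stage 9 library reached the lowest one of Stage 8. At the step before, from Stage 7 to Stage 8, the neighbours differed. LOC112555648 fell from 333, 292 and 275 CPM to 91.9, 101, 115 and 89.5 CPM (-1.64 ± 0.21 SE in log2, adjusted p = 3.61e-07 by edgeR). LOC112557628 stood at 417, 218 and 195 CPM and then at 325, 234, 417 and 234 CPM, with overlap and a change of 0.08 in log2 (SE 0.37, adjusted p = 0.882 by edgeR). The difference between the 2 genes was not tested. LOC112557629 had a call there (log2 fold change -1.02, adjusted p = 0.0255 by edgeR) that was lost without replicate 2 or 4 of Stage 8, without replicate 1 of Stage 7 and with DESeq2.

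Libraries of 1 stage deviated together in some of the neighbours. At Stage 4, where all but LOC112557632 of the 5 were called higher than at Stage 3, LOC112557629 stood at 541, 331 and 1049 CPM, LOC112557628 at 284, 118 and 461 CPM and LOC112557632 at 26.9, 7.57 and 33.0 CPM, so that replicate 2 was lowest and replicate 3 highest in each. LOC112555648, at 222, 206 and 367 CPM, had the same order. The Stage 4 call of LOC112557628 was lost without replicate 3 of Stage 4 or replicate 1 or 2 of Stage 3, and also when only these 2 stages were fitted, with an adjusted p of up to 0.192 by edgeR. At Stage 10 replicate 4 was the lowest and replicate 1 the highest in all of the 5 but LOC112557627, with 302, 167, 219.9 and 115 CPM in LOC112557629. LOC112557627 did not share that order and stood at 156, 255, 125 and 167 CPM. From Stage 9 to Stage 10 none of the 5 was called, with log2 fold changes from 0.04 in LOC112557627 to 1.12 in LOC112557632 (adjusted p = 0.964 and 0.161 by edgeR).

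**Figure D4:**
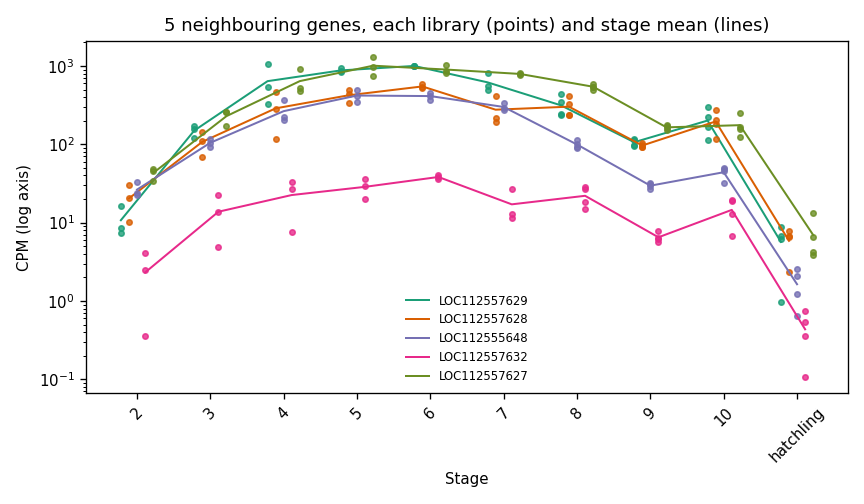
CPM on a log axis (y axis) by stage (x axis) for the 5 neighbouring members; points are single libraries and lines join stage means. All 5 are highest at Stage 5 or Stage 6 and lowest in the hatchling, and on the log axis libraries lie close together at Stage 6 and Stage 9 and far apart in the hatchling and, for LOC112557632, at Stage 2 (0.359 to 4.04 CPM).

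A second row held LOC112566831, LOC112567253 and LOC112566887. All 3 rose from Stage 3 to Stage 4 and fell from Stage 7 to Stage 8 under every alternative, but they came on at different levels. LOC112566887 stood at 21.4, 26.7 and 32.2 CPM in the Stage 3 libraries and at 123, 119 and 135 CPM at its Stage 5 peak. LOC112567253, between the other two in gene order, stood at 0.277, 0.542 and 0.794 CPM in the Stage 3 libraries and at 71.6, 66.1 and 69.7 CPM in those of Stage 6. As a share of the gene's own peak mean these Stage 3 levels were 21.3% and 0.778%, and in LOC112566831 the share was 12.3%. The rise to Stage 4 was 3.83 on the log2 scale in LOC112567253 (SE 0.28, adjusted p = 3.34e-11 by edgeR), 2.06 in LOC112566831 (SE 0.14) and 1.61 in LOC112566887 (SE 0.15).

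The neighbours LOC112561435 and LOC112576083 were both highest at Stage 5, with a Stage 5 mean of 59.9 and 109 times the higher end. LOC112576083 stood at 0.120, 0.148 and 0.158 CPM in the Stage 2 libraries, at 13.0, 14.3 and 18.9 CPM in the Stage 5 ones and at 0.0730, 0.239, 0.0793 and 0.0967 CPM after hatching. Its Stage 2 mean rests on 8 reads. LOC112561435 stood at 0.180, 0.444 and 0.315 CPM in the Stage 2 libraries, at 49.5, 54.7 and 71.1 CPM in the Stage 5 ones and at 0.605, 0.957, 1.22 and 1.13 CPM after hatching. Both fell from Stage 7 to Stage 8 under every alternative, and in LOC112576083 the change was large (-2.83 ± 0.39 SE in log2, adjusted p = 1.24e-06 by edgeR). LOC112556155 stood at 0.180, 0.0494 and 0.210 CPM in the Stage 2 libraries, at 27.5, 37.6 and 36.2 CPM in the Stage 6 ones and at 1.69, 1.08, 1.82 and 1.87 CPM after hatching. LOC112560458 and LOC112560459, which are not adjacent in gene order, also had like levels. Their Stage 6 means were 132 ± 38.2 and 119 ± 14.2 CPM and their hatchling means 4.25 ± 1.70 and 5.10 ± 0.839 CPM.

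Some of the members with the most reads were transient only in part. LOC112561995 had a peak mean of 1356 ± 7.18 CPM at Stage 6 (n = 3), with 582, 636 and 629.8 CPM at Stage 2 and 617, 548, 498 and 548 CPM in the hatchling. It thus never left a range of 2.45-fold over the 10 stage means, and it is not a member under TMM or RLE scaling, nor is LOC112563571, with 582 ± 40.2 CPM at Stage 5, 244 ± 71.0 CPM at Stage 2 and 134 ± 7.02 CPM in the hatchling (n = 4). LOC112554396, with 512 ± 52.9 CPM at Stage 5 and 189 ± 18.3 CPM in the hatchling, is one under both. Reads are not corrected for gene length, so these levels do not rank the genes. LOC112565150 and LOC112572136 came on and then stayed. LOC112565150 stood at 724, 846 and 717 CPM at Stage 6 and still at 304, 266, 303 and 347 CPM in the hatchling, against 0.0599, 0.247 and 0.158 CPM at Stage 2. LOC112572136 stood at 415, 497 and 448 CPM in the Stage 6 libraries and at 174, 167, 157 and 190.0 CPM after hatching, against 4.01, 2.07 and 1.58 CPM at Stage 2. For these 2 genes the hatchling is far above Stage 2 in every library, and the peak is less than 3 times the hatchling mean.

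In a few members the peak rests on some of the libraries. In 170 of 178 members every library of the peak stage was above every Stage 2 and hatchling library, a figure the rule favours. The share was 26.1% of tested genes at their own highest stage, but a gene highest at Stage 2 or in the hatchling cannot meet this. The 2 figures are therefore not a like comparison. In 6 members 1 library held more than 50% of the summed CPM of the peak stage. Libraries of 1 stage differed by 10-fold or more (with 5 CPM or more in the highest) at 1 stage or more in 12 members, or 6.74%, against 2.15% of tested genes, and at 3 stages or more in 7 members, or 3.93%, against 0.378%. By the rule every member reaches 5 CPM in some library, which a tested gene need not do. The shares are therefore not a like comparison. LOC112565614 was the plainest case. Its Stage 5 libraries stood at 0.655, 208 and 207 CPM, its Stage 7 libraries at 32.8, 149 and 0.209 CPM and its Stage 9 libraries at 0.0398, 0, 55.7 and 48.9 CPM. At Stage 8 all 4 were high, at 157, 129, 137 and 125 CPM, and from Stage 10 on none was above 0.179 CPM. At Stage 5, Stage 7 and Stage 9 its libraries thus lay near 0 or far above it, and the stage mean describes neither.

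LOC112574724 had the same kind of spread at lower levels, with 12.6, 3.07 and 13.9 CPM at Stage 5 and 0.110, 8.60 and 0.209 CPM at Stage 7. LOC112564805 stood at 9.22, 0 and 7.58 CPM in the Stage 5 libraries, at 10.5, 0.0456 and 0.0476 CPM in the Stage 6 ones and at 0, 0, 7.81 and 7.64 CPM in those of Stage 8. LOC112568154 stood at 4.68, 0.301 and 11.5 CPM at Stage 5 and LOC112568042 at 16.8, 0.542 and 7.70 CPM. In each of these 4 genes the lowest Stage 5 library was the second, and in LOC112565614 it was the first. These 5 genes were singled out, after their values were seen, from the 12 with such a spread. The order of the Stage 5 libraries in the others is not given, so no pattern of a replicate can be read from it. Whether the libraries differ by technique or by animals was not tested. Applied without 1 library at a time, the rule kept 110 of the 178 members whichever of the 34 libraries was left out, and it chose between 163 and 201 genes.

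**Figure D5:**
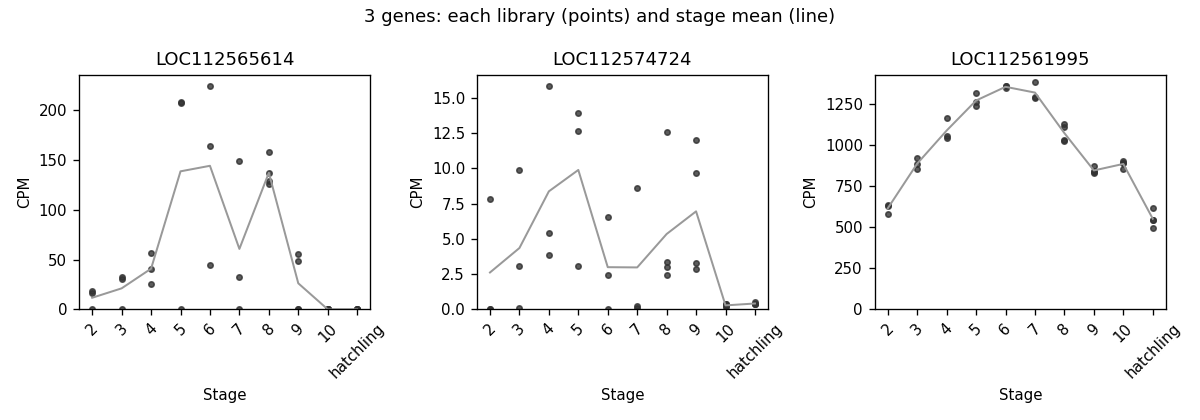
CPM (y axis, from 0) by stage (x axis) for LOC112565614, LOC112574724 and, for comparison, LOC112561995; points are single libraries and the line joins stage means. In the first 2 genes libraries of 1 stage fall far apart, as with 0.655, 208 and 207 CPM at Stage 5 in LOC112565614, while in LOC112561995 those of Stage 6 lie within 1348 to 1362 CPM.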

How the data were processed

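Gene-level read counts of 34 libraries of whole-animal polyadenylated RNA were used as deposited, and the authors' table holds whole numbers of reads per gene. STAR is named per the submitters' processing notes, with no version, and the sources used here name no genome build, annotation or strand setting. Groups are the stages in the labels. Members were chosen on CPM over column totals. The members and gene lists were chosen with earlier results of these data known.

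Tests used edgeR 4.0.16 in R 4.3.3, with TMM factors, filterByExpr at a minimum count of 10, 1 coefficient per stage over all libraries, the quasi-likelihood test and Benjamini-Hochberg adjustment over 17441 genes. Alternatives used limma 3.58.1 (voom) and DESeq2 1.42.0, other scalings, no filter, fits on 2 stages, a replicate block and fits without 1 library. On simulated data with 17441 genes, 94%, 87%, 88% and 92% of genes changed 2-fold were called in the 4 comparisons in the order of the report. The changed genes were drawn only from those with 5 CPM or more at the earlier stage of the step. Genes below that level, such as LOC112565150 and LOC112577381 at Stage 3, were thus not covered. Deeper libraries give less counting error, and the shallowest library, at Stage 8, held 13392123 reads.

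Genes were named by rule: the 8 largest ratios of the peak to the higher end with a peak of 20 CPM or more, the 8 highest peaks, up to 2 called members per step and direction with no overlap and 10 CPM or more, the genes nearest each limit, and the 3 largest groups of neighbours. Genes outside it were named after their values were seen. Gene order came from the RefSeq table of assembly ASM307304v1. Planned searches of protein signatures and promoter motifs were not run because sequences were not used here.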

Additional observations from a re-analysis of the deposited data

Results flagged for a closer look

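In 8 of 144 sets of 4 libraries of 1 stage, taken over 35 named members and the summed level of all members, 1 library stood apart by Dixon's criterion, the gap to the nearest library as a share of the range. Chance alone flags about 1 set in 20. At Stage 8, LOC112574724 had 12.57 CPM in replicate 3 against 2.44 to 3.36 CPM in the others. LOC112577293 had 3.79 CPM in replicate 1 of Stage 8, below the 4.75 to 4.87 CPM of the others. LOC112566831 had 31.43 CPM in replicate 1 of Stage 9 against 27.0 to 27.7 CPM. At Stage 10, LOC112563551 had 13.1 CPM in replicate 4 against 10.9 to 11.2 CPM, LOC112568154 had 15.9 CPM in replicate 2 against 0 to 0.430 CPM, and LOC112576083 had 0.5358 CPM in replicate 2 against 0.248 to 0.258 CPM. In the hatchling, replicate 2 was the highest for LOC112564805, with 5.233 CPM against 0 to 0.0528 CPM, and for LOC112576083, with 0.2392 CPM against 0.0730 to 0.0967 CPM.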

How the results depend on the processing

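A minimum of 3 times both ends in place of 2 left 72 of the 178 members. From Stage 9 to Stage 10 the 15 calls became 30 with limma-voom and 24 with DESeq2, and 4 to 14 when 1 library was left out. At the other steps the number of members called stayed within 1.5 times under every alternative, with 71 to 90, 95 to 109 and 51 to 74 when 1 library was left out, in the order of the report. The replicate numbers did not pair the libraries, since correlations of same-numbered deviations ran from -0.126 to 0.0952. With the replicate block the counts were 88, 108, 72 and 13. Of 71 called changes in named members, 48 kept their call under every alternative, 23 lost it under 1 or more, and 0 reversed. The causes of these differences were not tested. Levels of a few reads, as at Stage 2 in the genes near 0, limit any ratio to that stage.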
